A study of Mus musculus with 90 samples.

Results

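The genes described here are a list of 29 enzymes and regulators that build cholesterol and fatty acids, 19 in a sterol arm and 10 in a fatty acid arm, followed through mouse lung during styrene inhalation. Members were taken from the list by name, and the list was drawn up with earlier results of these data known. A gene was measured where a probe set of the array carried its symbol and no other, and the probe set with the highest mean over all 90 arrays stood for it. By that rule 25 of the 29 were measured, 17 in the sterol arm and 8 in the fatty acid arm, out of 17097 genes in all. Pmvk and Acat2 of the sterol arm and Scd2 and Srebf1 of the fatty acid arm are not analysed here.

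Cholesterol is made from acetyl units through the mevalonate pathway, which yields squalene, and a second run of enzymes closes squalene into lanosterol and trims it to cholesterol. Fatty acid synthesis starts from citrate and acetate, uses NADPH from enzymes such as malic enzyme, and ends with elongases and desaturases that set chain length and saturation. Many genes of both arms are known targets of the SREBP transcription factors, which INSIG proteins hold in the endoplasmic reticulum when sterol is plentiful. In lung, alveolar type II cells are known for a high rate of lipid synthesis, since they make surfactant.

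Expression was measured in whole lung of adult male C57Bl/6 mice with the Affymetrix HT MG-430 PM array, 1 animal per array, in 18 groups of 5 biological replicates. The groups crossed 3 strains with 1 or 4 weeks of exposure and with 0, 40 or 120 ppm of inhaled styrene, given for 6 hours a day on 5 days a week, and animals were killed the morning after exposure ended. Besides wild type (WT) there were a knockout labelled CYP2F2(-/-) (KO), which lacks a cytochrome P450 gene of lung, and a transgenic line labelled CYP2F2(-/-),2F1,SA13,2B6 (TG), called CYP2F1 humanized. By their labels both altered strains lack the mouse gene, and what drives the transgenes, and in which cells, is not given in the labels.

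Values are log2 expression, so a difference of 1 is a doubling, and levels are compared only within a gene. Array medians ran from 4.42 to 4.86. Cyp2f2 itself ran from 12.73 to 13.39 in the 30 WT lungs, from 11.53 to 12.28 in the 30 KO lungs and from 11.58 to 12.13 in the 30 TG lungs, so WT did not overlap either altered strain. Unexposed KO lungs were 2.65-fold and TG lungs 2.62-fold below WT (adjusted p = 7.43e-31 and 1.61e-30), so the probe set kept a high signal in the strains labelled as lacking the gene, and its place relative to the deletion is not given. Estimated array weights were under 0.25 for 4 arrays, which were KO 40 ppm animal 1 at 4 weeks and, at 1 week, WT 120 ppm animal 3, TG control animal 5 and KO control animal 3. A lung holds many cell types, and in bulk lung fewer cells of a type and less RNA per cell cannot be told apart.

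Of the 25 measured members, 20 had a promoter window in the RefSeq table of build GRCm38.p6, which runs from 250 bases before to 50 bases after the annotated start. The windows below belong to Tm7sf2, Me1, Fasn and Elovl1, which passed every 1-week comparison of WT mice with their controls and with the other strains (Fdps did too, and has no window here), and to Mvd, which had the largest rise of any sterol member with a window. Each is read 5′ to 3′ on the strand of its gene, and capitals mark CCAAT and GGGCGG on either strand, so ATTGG and CCGCCC are marked too.
Mvd: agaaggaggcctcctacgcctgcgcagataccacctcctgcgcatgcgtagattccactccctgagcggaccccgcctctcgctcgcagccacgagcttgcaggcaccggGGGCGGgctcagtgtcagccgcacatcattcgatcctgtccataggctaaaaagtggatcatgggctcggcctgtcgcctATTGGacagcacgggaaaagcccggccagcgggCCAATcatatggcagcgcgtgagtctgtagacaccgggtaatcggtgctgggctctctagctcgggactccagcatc
Tm7sf2: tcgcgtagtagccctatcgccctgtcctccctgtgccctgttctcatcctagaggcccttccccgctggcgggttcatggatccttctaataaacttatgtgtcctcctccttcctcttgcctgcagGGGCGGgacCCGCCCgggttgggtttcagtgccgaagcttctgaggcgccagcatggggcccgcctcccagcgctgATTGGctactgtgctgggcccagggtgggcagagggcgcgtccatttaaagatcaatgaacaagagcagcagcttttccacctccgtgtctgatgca
Me1: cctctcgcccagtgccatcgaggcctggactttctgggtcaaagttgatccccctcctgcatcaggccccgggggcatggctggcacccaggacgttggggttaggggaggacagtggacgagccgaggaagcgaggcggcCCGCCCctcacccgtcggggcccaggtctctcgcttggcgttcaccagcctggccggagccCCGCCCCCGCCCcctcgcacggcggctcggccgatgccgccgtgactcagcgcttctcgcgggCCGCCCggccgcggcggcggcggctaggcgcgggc
Fasn: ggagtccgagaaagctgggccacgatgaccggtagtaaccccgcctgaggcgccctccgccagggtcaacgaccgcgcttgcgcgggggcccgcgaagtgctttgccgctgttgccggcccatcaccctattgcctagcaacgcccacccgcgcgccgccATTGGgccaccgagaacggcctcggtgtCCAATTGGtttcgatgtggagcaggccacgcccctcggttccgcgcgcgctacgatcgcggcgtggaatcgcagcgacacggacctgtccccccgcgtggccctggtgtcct
Elovl1: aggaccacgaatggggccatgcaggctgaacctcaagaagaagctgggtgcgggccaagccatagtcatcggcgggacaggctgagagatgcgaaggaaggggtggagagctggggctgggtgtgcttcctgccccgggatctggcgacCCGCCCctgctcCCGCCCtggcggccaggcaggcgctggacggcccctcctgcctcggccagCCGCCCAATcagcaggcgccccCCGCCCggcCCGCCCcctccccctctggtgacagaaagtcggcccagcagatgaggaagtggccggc
They lie at chr8:122443373-122443672 (Mvd, minus strand), chr19:6067801-6068100 (Tm7sf2, minus strand), chr9:86695865-86696164 (Me1, minus strand), chr11:120824498-120824797 (Fasn, minus strand) and chr4:118427843-118428142 (Elovl1, plus strand), each across the annotated start of its gene.

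CCAAT, the box bound by NF-Y, stood in 16 of the 20 member windows (80.0%), against 38.6% of the 13605 windows of genes on the array. GGGCGG, the core of the Sp1 motif, stood in 17 member windows (85.0%), against 54.0%. By arm, CCAAT was found in 12 of 13 sterol windows and 4 of 7 fatty acid windows, and GGGCGG in 13 of 13 and 4 of 7. TCACNCCAC, the sterol regulatory element motif that SREBPs bind, was found in 1 member window, that of Hmgcs1, 137 bases before the start, and in 1.22% of the array's windows. CACGTG, the E-box, stood in the windows of Hsd17b7, Insig1 and Sc5d (3 of 20, against 9.02% of the array). Member windows were also richer in G and C, with a median of 65.3% against 58.7%. By arm the median was 64.7% in the sterol windows and 68.7% in the fatty acid windows. Among the marked windows, CCAAT occurred 3 times in Fasn and 0 times in Me1, while GGGCGG occurred 5 times in Elovl1 and 0 times in Fasn. A match in a window is a description of letters, and no binding was measured in these samples.

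The first question is how the lipid genes of WT lung responded to 1 week of styrene. At 40 ppm, 11 of the 25 measured members rose and 0 fell, against 3.82% of all genes that rose and 0.854% that fell. The sterol arm gave 7 of 17 and the fatty acid arm 4 of 8. All 25 members had a difference above 0, as did 57.2% of all genes. The median difference was 0.57 in the sterol arm and 0.26 in the fatty acid arm, against 0.03 over all genes.

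**Figure D1:**
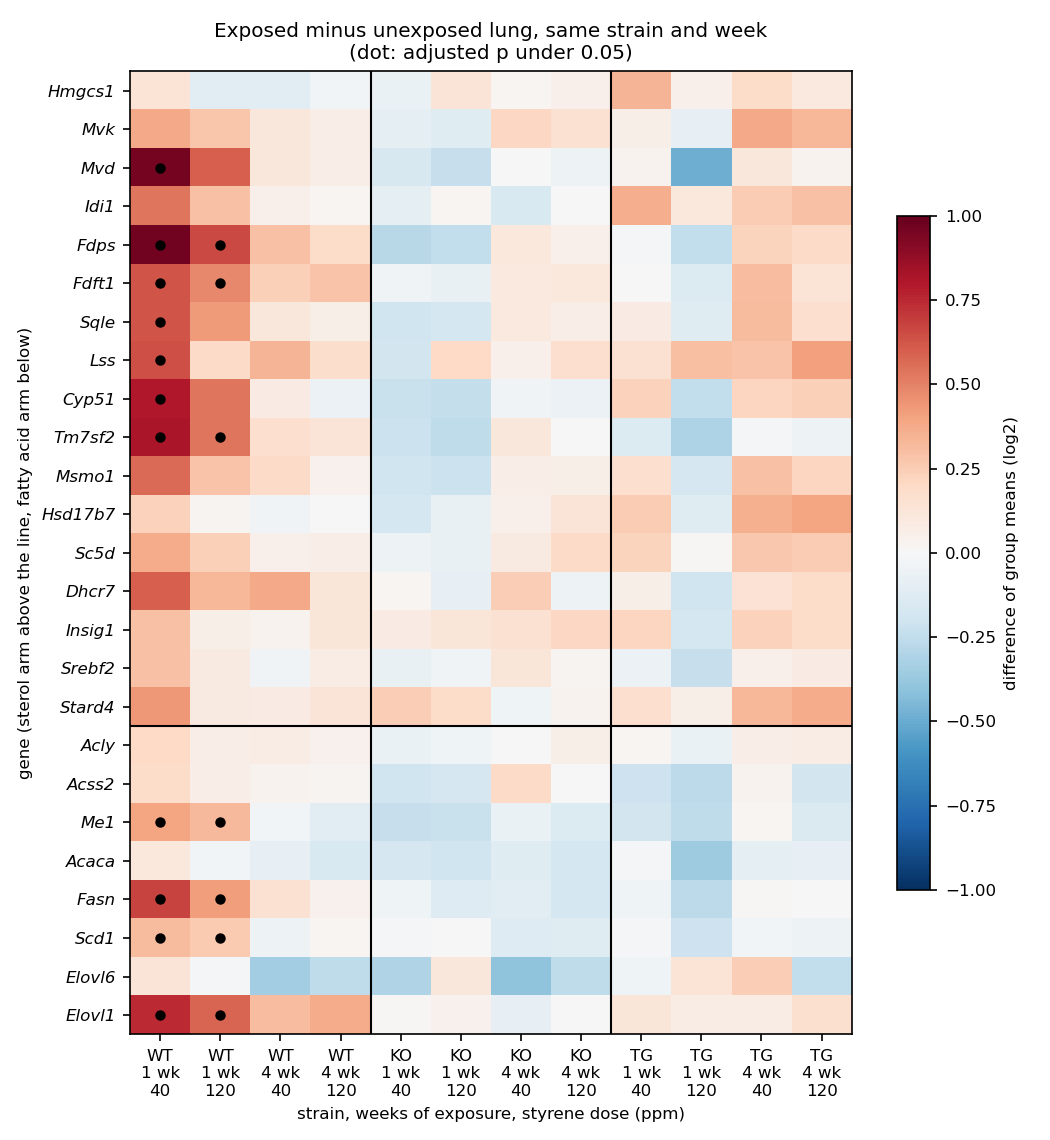
The heat map gives the log2 difference from the unexposed controls for each of the 25 measured members in the 12 strain, week and dose comparisons, with a dot where the adjusted p was under 0.05. Dots lie only in the WT 1-week columns, 11 at 40 ppm and 7 at 120 ppm.

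In the mevalonate part of the pathway, Fdps, which makes farnesyl pyrophosphate, had levels of 9.64, 8.87, 9.31, 9.06 and 8.84 in the 5 controls and of 10.36, 10.30, 10.19, 10.28 and 9.43 in the 5 lungs at 40 ppm. Exposed animals 1 to 4 lay above every control, and animal 5 lay below control animal 1. The rise was 1.95-fold (log2 difference 0.97, SE 0.19, adjusted p = 0.000215). Mvd, the mevalonate diphosphate decarboxylase, had 6.63, 5.76, 6.16, 6.05 and 5.88 in controls and 7.26, 7.13, 7.32, 7.12 and 6.43 at 40 ppm. The same animal was the low one, and the rise was 1.94-fold (0.95, SE 0.22, adjusted p = 0.00291). Idi1, which isomerises isopentenyl pyrophosphate, and Mvk, mevalonate kinase, had differences of 0.53 and 0.38 that missed the threshold (adjusted p = 0.264 and 0.209). Hmgcs1, the synthase ahead of the pathway, differed by 0.14 (adjusted p = 0.751), on a probe set whose mean of 4.18 lies under the 40th percentile of all genes (5.05).

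At the squalene and lanosterol steps, Fdft1, which makes squalene, and Sqle, which oxidises it, both rose 1.55-fold (adjusted p = 0.00096 and 0.00413). Lss, which folds squalene epoxide into lanosterol, rose 1.56-fold from 6.58, 6.33, 6.64, 6.42 and 5.97 to 7.25, 7.10, 7.02, 7.26 and 6.53 (adjusted p = 0.00286). Here again the fifth exposed animal lay within the range of the controls. Cyp51, the lanosterol demethylase, went from 8.21, 7.93, 8.24, 8.13 and 7.58 to 8.96, 9.02, 8.95, 9.01 and 8.17, a log2 difference of 0.80 (SE 0.21, adjusted p = 0.0108). Its other 4 exposed animals were above every control. Tm7sf2, a sterol reductase, went from 6.56, 5.95, 6.41, 6.27 and 6.27 to 7.18, 7.20, 7.29, 7.34 and 6.54, and rose 1.76-fold (0.82, SE 0.15, adjusted p = 0.00011).

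The later sterol enzymes and the regulators had smaller differences or larger errors, and none of them passed. Dhcr7, the last reductase before cholesterol, differed by 0.60 (adjusted p = 0.103), Msmo1, a methyl sterol oxidase, by 0.57 (0.0762), Sc5d, a desaturase, by 0.37 (0.154) and Hsd17b7, a ketoreductase, by 0.23 (0.638). Stard4, a carrier of sterol between membranes, differed by 0.44 (adjusted p = 0.0546), although its 5 exposed lungs, at 8.30 to 8.50, all lay above the 5 controls, at 7.81 to 8.06. It passed under most alternatives, with an adjusted p of 9.48e-05 with array weights and 0.0048 with only the arrays compared, and on its other probe sets (0.45 and 0.72, adjusted p over all probe sets = 0.0489 and 0.00981). Insig1 and Srebf2, the gene of SREBP2, differed by 0.30 and 0.29 (adjusted p = 0.132 and 0.222).

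In the fatty acid arm, the 4 genes that rose also separated the animals. Elovl1, an elongase of very long chains, had 12.17, 11.62, 11.83, 11.65 and 11.59 in controls and 12.55, 12.48, 12.58, 12.53 and 12.46 at 40 ppm, a 1.68-fold rise (0.75, SE 0.11). All 5 exposed lungs were above all 5 controls, and its adjusted p of 1.46e-06 was the lowest of any member. Fasn, the fatty acid synthase, had 10.76, 10.12, 10.62, 10.37 and 10.39 in controls and 11.17, 11.22, 11.09, 11.20 and 10.98 at 40 ppm, a 1.60-fold rise (0.68, SE 0.11, adjusted p = 9.81e-06). Again the groups did not overlap.

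Me1, malic enzyme, which supplies NADPH, had 9.06, 8.81, 9.11, 9.04 and 9.07 in controls and 9.42, 9.35, 9.51, 9.45 and 9.34 at 40 ppm (difference 0.40, SE 0.09, adjusted p = 0.00133). Scd1, which puts a double bond into stearate and palmitate, rose from 13.00, 12.96, 13.15, 13.07 and 12.88 to 13.39, 13.34, 13.25, 13.40 and 13.27 (0.32, SE 0.07, adjusted p = 0.00262). Both pairs of groups were separate. The enzymes that make and carboxylate acetyl-CoA had differences of 0.20 (Acly), 0.18 (Acss2) and 0.11 (Acaca) and did not pass, nor did the elongase Elovl6, at 0.13. Counting separation rather than the test, 6 of the 25 members had all exposed lungs above all controls, namely Idi1, Stard4, Me1, Fasn, Scd1 and Elovl1, against 5.66% of all genes.

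**Figure D2:**
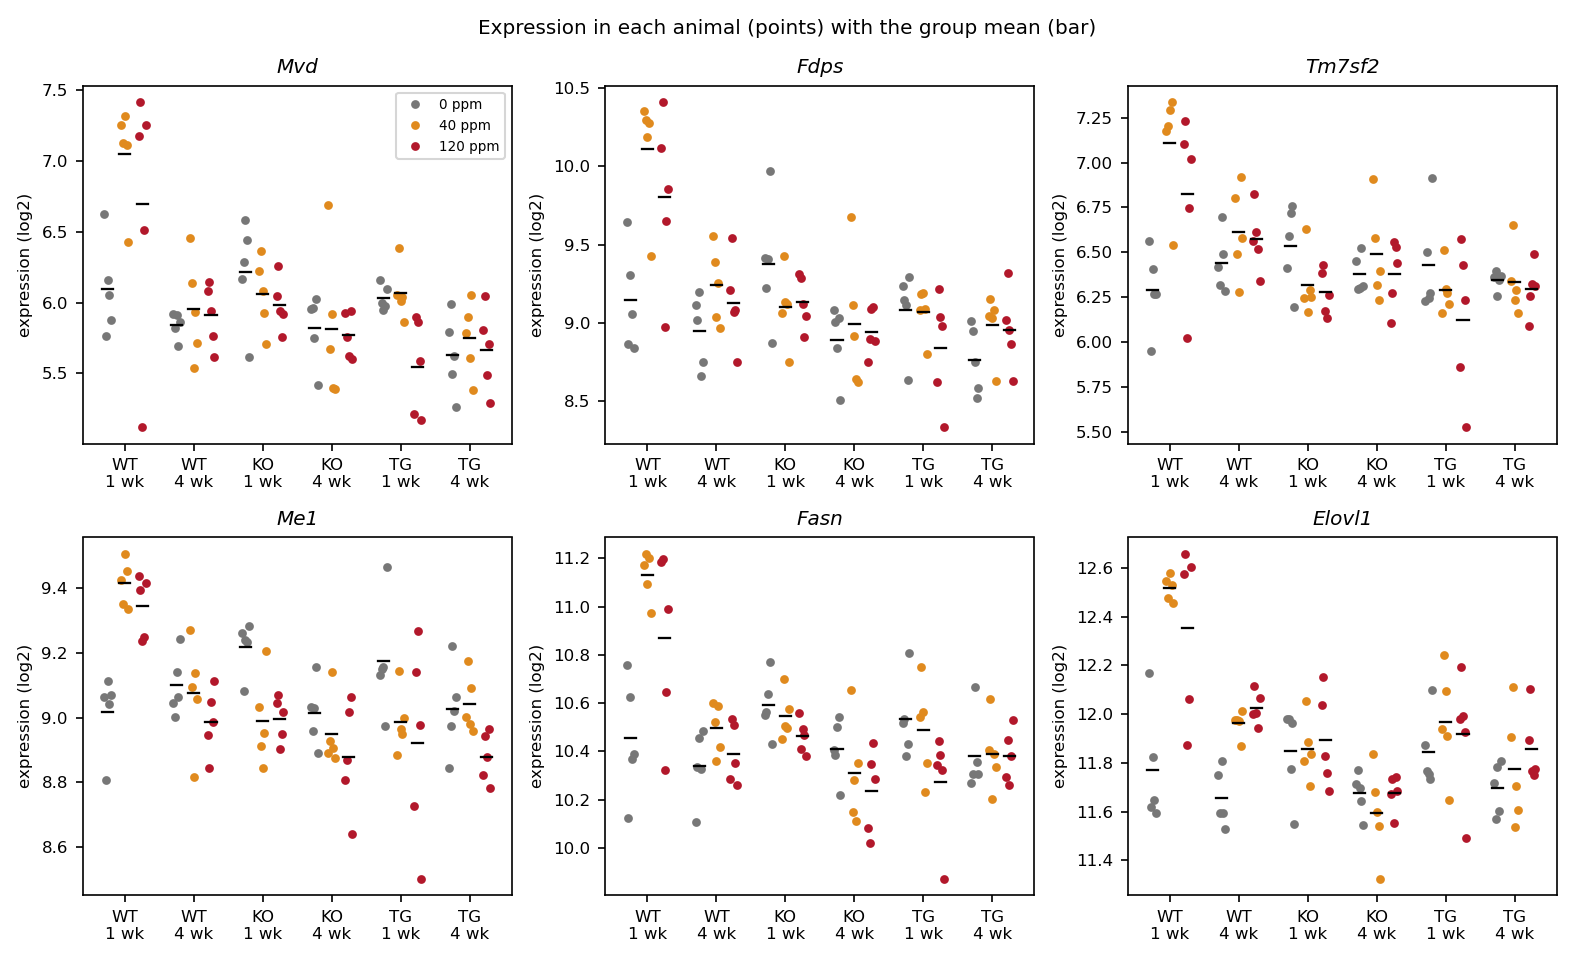
Log2 levels of Mvd, Fdps, Tm7sf2, Me1, Fasn and Elovl1 in each animal, by strain, week and dose, with a bar at each group mean. In WT at 1 week the 40 ppm points of Me1, Fasn and Elovl1 lie above all controls, while animal 5 of that group is low for Mvd, Fdps and Tm7sf2.

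Other genes of the same pathways were read from lists that also drew on earlier results of these samples. Of 11 measured further sterol genes, 4 rose at 40 ppm and 0 fell, with a median of 0.16. They were Nsdhl, a sterol dehydrogenase (0.61, adjusted p = 0.000983), Tmem97, a sterol-regulated membrane protein (0.55, 0.0313), Ebp, a sterol isomerase (0.34, 0.0298), and Npc2, a lysosomal cholesterol carrier (0.26, 0.00154). Of 15 further fatty acid and glycerolipid genes, 4 rose and 0 fell, with a median of 0.31. These were Dgat2, which makes triglyceride (0.85, adjusted p = 0.00455), Aacs, which activates acetoacetate (0.63, 0.0316), Slc25a1, the citrate carrier (0.55, 0.036), and Gpam, which starts glycerolipid synthesis (0.45, 4.99e-05). Of 7 measured genes of sterol efflux and LXR signalling, 0 changed at 40 ppm, with a median of -0.06, by the same limma test, and 1 rose at 120 ppm (Cyp7b1, an oxysterol hydroxylase, 0.62, adjusted p = 0.00665).

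Markers of other cell types moved with the lipid genes in part. All 7 measured markers of dividing cells rose at 40 ppm, and their mean deviation from each gene's 90-array mean went from -0.24 in WT controls to 1.59 (range 1.27 to 1.89). Exposed animal 5, low for the sterol enzymes, had a dividing-cell mean of 1.89, the highest of its group. Animal 3 was close to it, at 1.88, with a sterol mean of 0.64. Animal 5 also had the lowest type II and endothelial marker means of its group, 0.12 and -0.44. Of 7 measured alveolar type II markers, 3 rose, and their mean went from 0.00 to 0.18, while Sftpc, surfactant protein C, differed by 0.02 (adjusted p = 0.893). Of the 6 measured adipocyte markers, 0 passed the limma test, their mean was -0.26 in controls and -0.18 at 40 ppm, and Lep and Pck1 were near the bottom of the scale, with means of 2.42 and 2.44. Of 5 endothelial markers 1 fell, Tek (-0.35, adjusted p = 0.0233), with a median of -0.32, and their mean went from 0.05 to -0.24. The club cell gene Cyp2f2 fell by 0.33 (adjusted p = 0.013), 1 of 3 club markers, whose mean went from 0.33 to 0.16. The parts of dividing, type II, endothelial and club cells in the lipid result were not tested. The clock genes Dbp and Arntl, chosen after their values were seen, differed by 3.36 and -2.28 in WT at 40 ppm. In TG at 120 ppm for 1 week they differed by 1.98 and -1.60 (limma adjusted p = 0.0435 and 0.0035). In KO at that dose they differed by 1.65 and -1.07 and did not pass (0.290 and 0.344). At 40 ppm for 1 week they were 0.54 and -0.29 in TG and -0.12 and -0.06 in KO, and did not pass.

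At 120 ppm for 1 week, 7 of the 25 members rose and 0 fell, against 3.94% of all genes that rose and 2.85% that fell. They were Fdps (0.66, SE 0.19, adjusted p = 0.0176), Tm7sf2 (0.53, 0.0181), Fdft1 (0.48, 0.0156), Elovl1 (0.58, 0.0002), Fasn (0.41, 0.0113), Me1 (0.33, 0.00957) and Scd1 (0.26, 0.0156). All 7 had risen at 40 ppm, with which they share the control lungs. Differences were above 0 for 22 of 25 members and 50.5% of all genes, with medians of 0.29 in the sterol arm, 0.17 in the fatty acid arm and 0.00 over all genes.

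The lungs at 120 ppm varied more. Mvd stood at 7.18, 7.42, 5.12, 6.51 and 7.26, a difference of 0.60 that did not pass (adjusted p = 0.09), and Fdps at 10.12, 10.41, 8.97, 9.65 and 9.86. Animal 3 was lowest for both and lay below the highest controls. Mvd passed without the arrays of low weight (0.99, adjusted p = 2.63e-05), with array weights (0.91, 0.000645) and on its second probe set (0.71, adjusted p over all probe sets = 0.016). Fasn, at 11.18, 11.20, 10.32, 10.64 and 10.99, and Elovl1, at 12.58, 12.66, 11.87, 12.06 and 12.60, had the same low animal. Me1, at 9.44, 9.39, 9.23, 9.25 and 9.41, was the only member with all 5 exposed lungs above all 5 controls, against 1.33% of all genes.

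Animal 3 was also the array with the lowest median and, in its dividing-cell mean, stood at -0.09, where the other 4 ran from 1.11 to 3.12. All 7 dividing-cell markers rose at this dose too, and 4 of 5 endothelial markers fell, their mean going from 0.05 to -0.37, and their part in the lipid result was not tested. Without animal 3, 11 members rose. The count was 1 without control animal 2, 4 without control animal 5, and 2, 3 and 4 without exposed animals 1, 2 and 5. It was 0 when only the 10 arrays compared were fitted. The share of all genes that passed in each of these refits is not given here, so the counts describe the members only. Sqle and Cyp51, called at 40 ppm, had differences of 0.42 and 0.53 at 120 ppm (adjusted p = 0.0736 and 0.118), and Lss had 0.19.

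Set directly against each other, the 120 and 40 ppm lungs at 1 week gave 0 members and 0 genes of the whole array past the limma threshold. All 25 members had the lower mean at 120 ppm, as did 64% of all genes. Medians were -0.25 in the sterol arm, -0.13 in the fatty acid arm and -0.04 over all genes. The 120 ppm means include animal 3, the array of lowest median, with a sterol mean of -0.32. The other 120 ppm lungs ran from 0.25 to 0.73, and the 40 ppm lungs from 0.18 to 0.78. The part of animal 3 in the lower means was not tested. The unadjusted p was under 0.05 for 4 members, against 5.11% of all genes, and Lss, at -0.45, came first (adjusted p = 0.87).

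**Figure D3:**
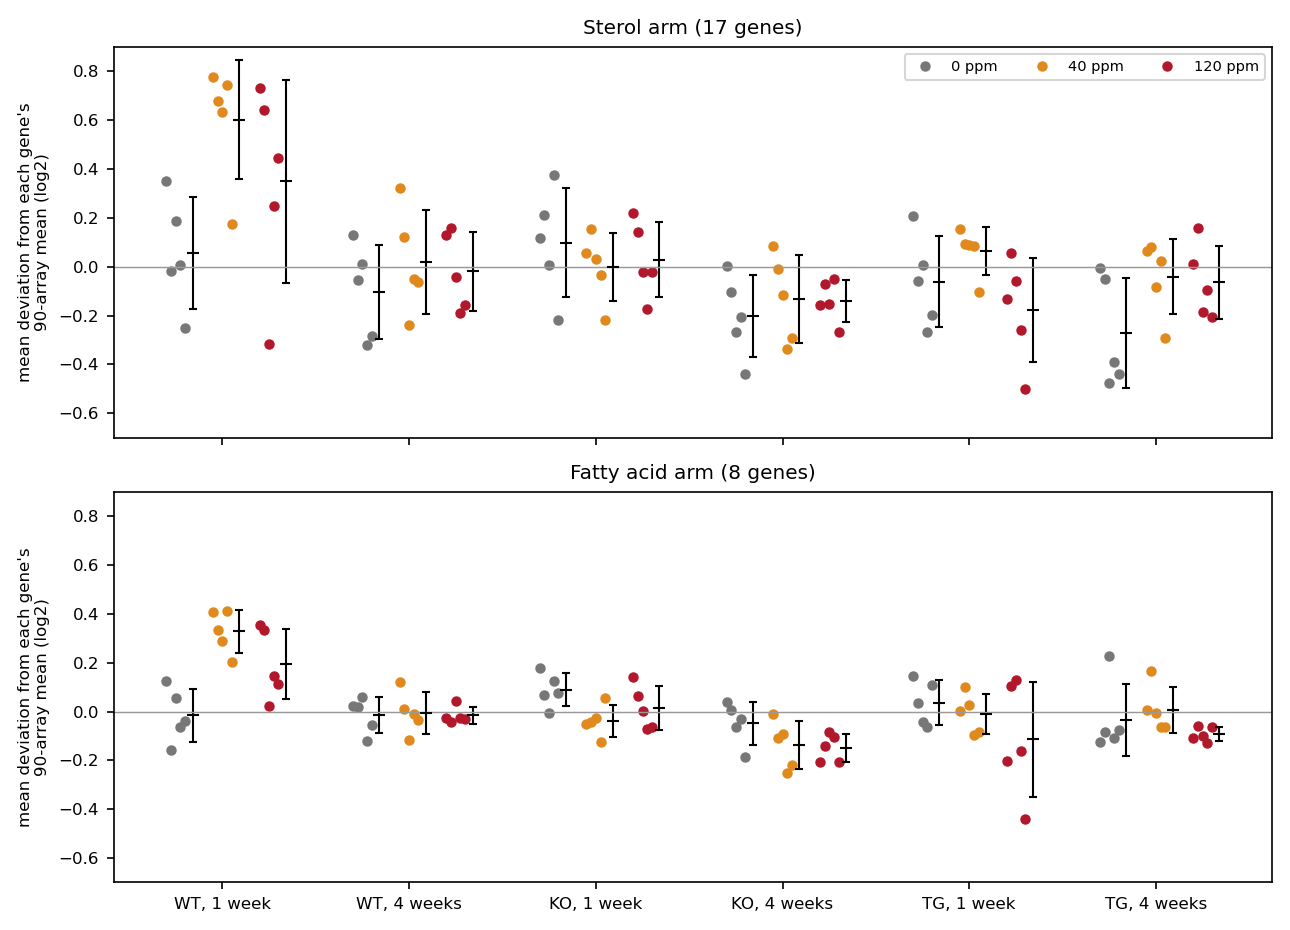
Mean deviation of the 17 sterol members and of the 8 fatty acid members from each gene's 90-array mean, in log2 units, for each animal, with the group mean and SD. WT lungs at 40 ppm for 1 week average 0.60 in the sterol arm and 0.33 in the fatty acid arm, against 0.06 and -0.02 in their controls.

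After 4 weeks the WT differences were small. By limma, 0 members passed at 40 ppm and 0 at 120 ppm, where 0.152% and 0.439% of all genes did. The unadjusted p was under 0.05 for 2 members at each dose, against 4.73% and 5.93% of all genes. Medians were 0.11 and 0.07 in the sterol arm and 0.00 and 0.02 in the fatty acid arm, and 18 and 19 of the 25 members lay above 0, against 54.6% and 53% of all genes.

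Elovl1 was the one member whose groups were still apart. Its 4-week levels were 11.75, 11.59, 11.81, 11.59 and 11.53 in controls, 11.98, 11.98, 11.97, 11.87 and 12.01 at 40 ppm, and 12.00, 12.11, 12.00, 11.94 and 12.07 at 120 ppm. Both exposed groups lay above the controls, as was so for 1.17% and 1.23% of all genes. The differences of 0.31 and 0.37 did not pass (adjusted p = 0.684 and 0.186).

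Whether the WT response itself differed between 4 and 1 weeks was tested as a difference of differences. At 40 ppm all 25 members had a lower signed difference at 4 weeks, as did 55% of all genes. Medians were -0.36 in the sterol arm and -0.39 in the fatty acid arm. By the limma test 0 members passed, against 0.532% of all genes. The unadjusted p was under 0.05 for 10 members, against 6.14% of all genes. Scd1 came nearest, at -0.37 (adjusted p = 0.0856), and Fasn stood at -0.52 (0.152). At 120 ppm 0 members passed, against 0.883% of all genes, with 3 members and 7.16% of all genes under an unadjusted p of 0.05, led by Me1 at -0.44 (adjusted p = 0.0606). Dbp still differed by 2.73 and 3.33 at 4 weeks, and Arntl by -1.79 and -2.57, and their part in the lipid result was not tested.

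The next question is how the same genes responded in the strains labelled as lacking Cyp2f2. The TG label names more than a single inserted item, and the TG change was not set against the KO change. In KO and TG lungs, 0 members passed in any of the 8 exposure comparisons by limma, and the lowest adjusted p of a member was 0.236, in TG at 120 ppm for 1 week. Over all genes, 0% passed in KO at either dose and in TG at 40 ppm at 1 week, and 0.0468% in TG at 120 ppm. At 4 weeks 0% and 0.0234% passed in KO and 0% and 0.0117% in TG. At 1 week the unadjusted p was under 0.05 for 1 and 1 members in KO, against 3.57% and 5.15% of all genes at 40 and 120 ppm, and for 2 and 7 members in TG, against 4.43% and 9.26%. At 4 weeks it was so for 0 and 0 members in KO, against 3.14% and 2.45%, and for 5 and 3 members in TG, against 7.47% and 5.61%. Sterol medians at 40 and 120 ppm were -0.10 and -0.08 in KO and 0.15 and -0.14 in TG at 1 week, and 0.09 and 0.05 in KO and 0.25 and 0.19 in TG at 4 weeks. In TG at 4 weeks 16 of 17 sterol members lay above 0 at each dose, without any of them passing. Over all 17097 genes, 10419 lay above 0 at 40 ppm and 9729 at 120 ppm. Both doses share the TG controls, where animal 3 had an array median of 4.55 and the lowest sterol mean, -0.48. Fatty acid medians were -0.12 and -0.08 in KO and -0.03 and -0.23 in TG at 1 week, and -0.09 and -0.13 in KO and 0.02 and -0.06 in TG at 4 weeks.

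Fdps and Elovl1 passed in neither strain. Fdps averaged 9.38, 9.10 and 9.13 in KO lungs at 0, 40 and 120 ppm for 1 week, and 9.08, 9.07 and 8.84 in TG lungs. Elovl1 averaged 11.85, 11.86 and 11.89 in KO and 11.84, 11.97 and 11.92 in TG, with SDs between 0.13 and 0.26 (n = 5 each). Me1 and Mvd lay the other way without passing the test, since Me1 in KO and Mvd in TG had all 5 lungs at 120 ppm below all 5 controls, as did 0.409% and 0.55% of all genes.

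The difference between strains in the change was tested directly. At 40 ppm for 1 week, the KO change was below the WT change for 7 members, against 1.05% of all genes, and all 25 members had a difference below 0, as did 56.2% of all genes. These 7 were Fdps (-1.25, adjusted p = 0.0038), Tm7sf2 (-1.04, 0.00281), Lss (-0.83, 0.0237), Sqle (-0.83, 0.0267), Elovl1 (-0.74, 0.00467), Fasn (-0.72, 0.00543) and Me1 (-0.63, 0.00143). Medians were -0.63 in the sterol arm, -0.41 in the fatty acid arm and -0.03 over all genes. At 120 ppm the KO change was lower for 5 members, against 1.76% of all genes, and these were Fdps (-0.90), Tm7sf2 (-0.79), Me1 (-0.55), Fasn (-0.54) and Elovl1 (-0.54), with adjusted p between 0.00406 and 0.049.

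The TG change was below the WT change for 5 members at 40 ppm, against 1.39% of all genes, and these were Fdps (-0.98, adjusted p = 0.0328), Tm7sf2 (-0.96, 0.00507), Fasn (-0.73, 0.00403), Elovl1 (-0.62, 0.0209) and Me1 (-0.58, 0.00239). At 120 ppm it was lower for 8 members, against 3.42%. Those 8 were Mvd (-1.09, adjusted p = 0.0275), Fdps (-0.91), Tm7sf2 (-0.84), Fasn (-0.68), Fdft1 (-0.62), Me1 (-0.58), Elovl1 (-0.51) and Scd1 (-0.47, adjusted p = 0.00255). The median over all genes was -0.04 at 40 ppm and -0.06 at 120 ppm. The 120 ppm values also hold lower levels in exposed TG lungs. In TG at 120 ppm 10982 of 17097 genes lay below 0, and animal 1 of that group had an array median of 4.59. For Mvd, the WT rise of 0.60 had not passed, and exposed TG lungs all lay below their controls. The 4 strain comparisons share the WT lungs of each dose and their controls, so their calls are not independent. At 0, 40 and 120 ppm for 1 week, adipocyte-marker means were -0.26, -0.18 and -0.25 in WT. They were 0.38, -0.11 and 0.30 in KO and 0.39, -0.16 and -0.12 in TG. No adipocyte marker passed in these strain comparisons, and the part of adipocytes in the strain differences was not tested. At 4 weeks 0 members passed in any of the 4 such limma tests, where 0.0234% and 0.0175% of all genes passed in KO and 0.0117% and 0.0292% in TG. The unadjusted p was under 0.05 for 1 member in KO at each dose, against 2.5% and 2.48% of all genes, and for 0 in TG, against 5.71% and 4.08%.

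Both 120 ppm strain counts were 0 when only the arrays compared were fitted. At 40 ppm, Lss in KO and Fdps and Elovl1 in TG did not pass in that fit. The share of all genes that passed in these refits is not given here. With each animal left out in turn, the KO count was 9 without WT 120 ppm animal 3 and 1 or 2 without any of WT controls 2, 4 and 5, KO controls 1, 3 and 4, WT 120 ppm animals 1, 2 and 5, or KO 120 ppm animals 3, 4 and 5. The TG count ran from 3 to 11, with 3 or 4 without any of WT controls 2 and 5, TG control 5, WT 120 ppm animals 1, 2 and 5, or TG 120 ppm animals 1 and 5. At 40 ppm, the counts ran from 5 to 10 in KO and from 3 to 6 in TG when each animal was left out in turn, with 3 in TG without WT control animal 2 or 5, TG control animal 5 or TG 40 ppm animal 5.

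Without exposure the strains were close. By limma 0 members passed between KO and WT, TG and WT, or TG and KO, averaged over both weeks, and 0.275%, 0.287% and 0.135% of all genes did. The lowest adjusted p of a member was 0.739, 0.377 and 0.962, and the unadjusted p was under 0.05 for 1, 1 and 0 members, against 6.4%, 8.92% and 5.31% of all genes. The sterol arm leaned lower in TG, with 14 of 17 members below WT (median -0.15) and 16 of 17 below KO (median -0.11). Of all 17097 genes, 8714 were below WT (median -0.002) and 10562 below KO (median -0.02). No single member carried the lean of the sterol arm past the test.

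Unexposed lungs of the later time differed from those of the earlier one. Over all 3 strains, 15 lungs at 4 weeks against 15 at 1 week, 10 members fell and 1 rose, against 5.96% of all genes that were lower and 11.3% that were higher. The sterol arm held 8 of the 10, Sc5d with its uncertain direction included, and its median was -0.26, against -0.14 in the fatty acid arm and -0.02 over all genes. Hsd17b7 had the largest change. Its lowest, median and highest levels were 6.36, 6.90 and 7.39 at 1 week and 5.76, 6.21 and 6.69 at 4 weeks, and it fell by 0.58 (adjusted p = 0.00032).

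Msmo1 ran from 8.81 through a median of 9.43 to 9.93 at 1 week and from 8.62 through 8.94 to 9.52 at 4 weeks, and fell by 0.38 (adjusted p = 0.0128). Fdft1 ran from 8.38 through 8.74 to 9.18 and then from 8.19 through 8.45 to 8.61, and fell by 0.32 (0.00293). The weeks overlapped for each of these genes. The other sterol members that fell were Mvd (-0.35), Fdps (-0.33), Sc5d (-0.29), Mvk (-0.27) and Sqle (-0.26), with adjusted p between 0.0104 and 0.0463. The call of Sc5d is uncertain in direction, since its second probe set rose by 0.46 (adjusted p over all probe sets = 0.0014) and the median over its probe sets was 0.38 (0.0059). With the median over probe sets, Mvd (-0.29, adjusted p = 0.0828) and Mvk (-0.17, 0.170) did not pass. Their second probe sets gave -0.23 and -0.07 (adjusted p over all probe sets = 0.160 and 0.642). The second sets of Hsd17b7 and Msmo1 fell too, by 0.38 and 0.26 (0.00247 and 0.0211). Tm7sf2, Idi1 and Lss, at -0.03, 0.03 and 0.05, did not pass on their brightest sets.

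In the fatty acid arm, Acss2, which activates acetate, ran from 7.94 through 8.33 to 8.87 and then from 7.66 through 8.08 to 8.45, and fell by 0.29 (adjusted p = 0.00672). Acaca, the acetyl-CoA carboxylase, fell by 0.16 (0.0442). Elovl6, which extends palmitate to stearate, was the exception. Its lowest, median and highest levels were 4.37, 5.21 and 6.11 at 1 week and 5.30, 5.60 and 6.21 at 4 weeks. It rose by 0.42 (adjusted p = 0.0137) on a probe set whose mean, 5.35, lies little above the 40th percentile of all genes. With the median over probe sets, Acaca (-0.10, adjusted p = 0.199) and Elovl6 (0.36, 0.0652) did not pass, while Acly (-0.19, 0.0167) and Scd1 (-0.30, 0.0109) did. The second probe set of Acss2 gave -0.14 (adjusted p over all probe sets = 0.159). Of the further sterol genes 2 of 11 rose and 3 fell, the latter Tmem97 (-0.26), Ebp (-0.22) and Npc1, a lysosomal cholesterol exporter (-0.17), and of the further fatty acid genes 1 of 15 rose and 3 fell. Week of exposure, age and any batch of handling or arrays cannot be told apart here. The count ran from 6, without WT control animal 1 of week 1, to 13 when each animal was left out in turn, and was 7 without KO control animal 4 or TG control animal 5 of week 1 or WT control animal 4 of week 4.

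**Figure D4:**
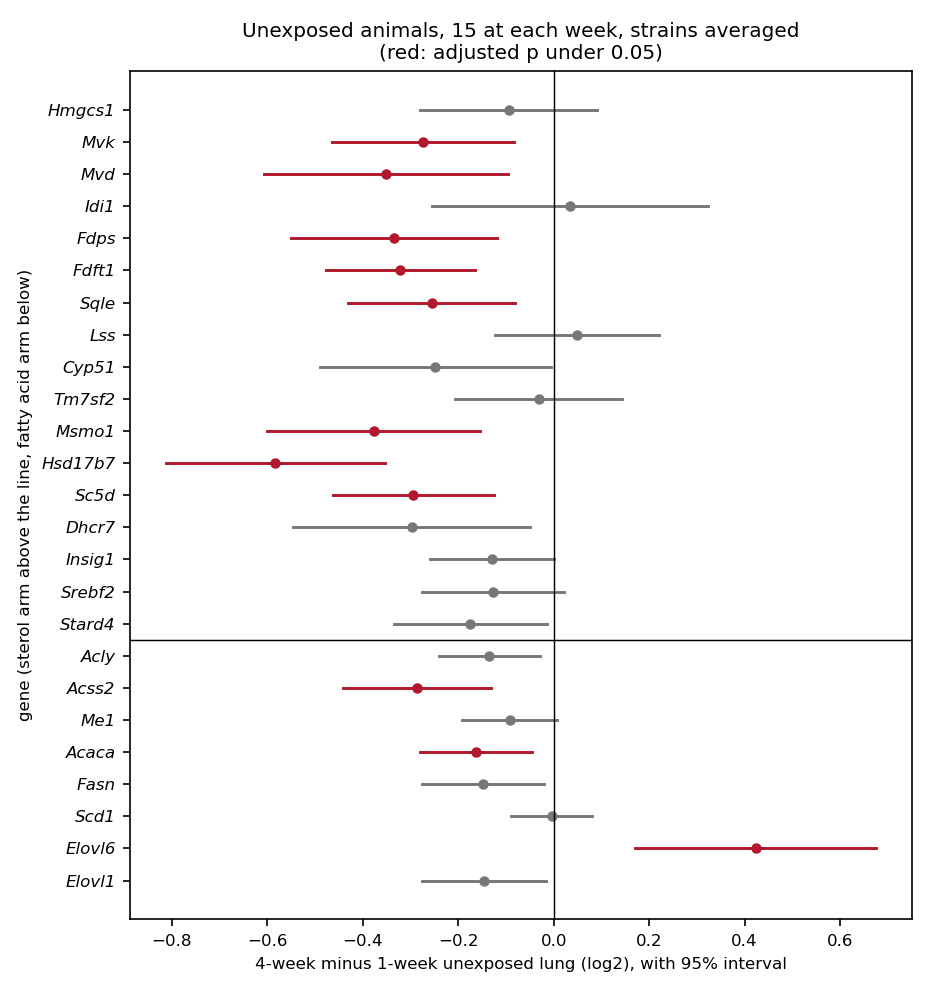
Difference between unexposed lungs at 4 weeks and at 1 week for each measured member, in log2 units, averaged over the 3 strains, with 95% confidence intervals. Hsd17b7 lies lowest at -0.58 and Elovl6 highest at 0.42.

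Within groups the members varied together from animal to animal. After subtracting each group's mean, the correlation over the 90 arrays had a median of 0.51 over the 136 pairs of sterol members, 0.38 over the 28 pairs of fatty acid members and 0.35 over the 136 pairs across arms. For each member the median correlation with all other genes of the array was also taken, and the median of these member medians was 0.09. The closest pairs were Cyp51 with Msmo1 (0.92), Sqle with Msmo1 (0.87), Fdps with Dhcr7 (0.86) and Mvd with Fdps (0.85), and the closest across arms was Fasn with Tm7sf2 (0.76). Elovl6 stood apart, with a median of -0.11 against the sterol members, and Hmgcs1, on its dim probe set, had a median of 0.25 against them. These points share the array and its normalisation, so they are given as a description.

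**Figure D5:**
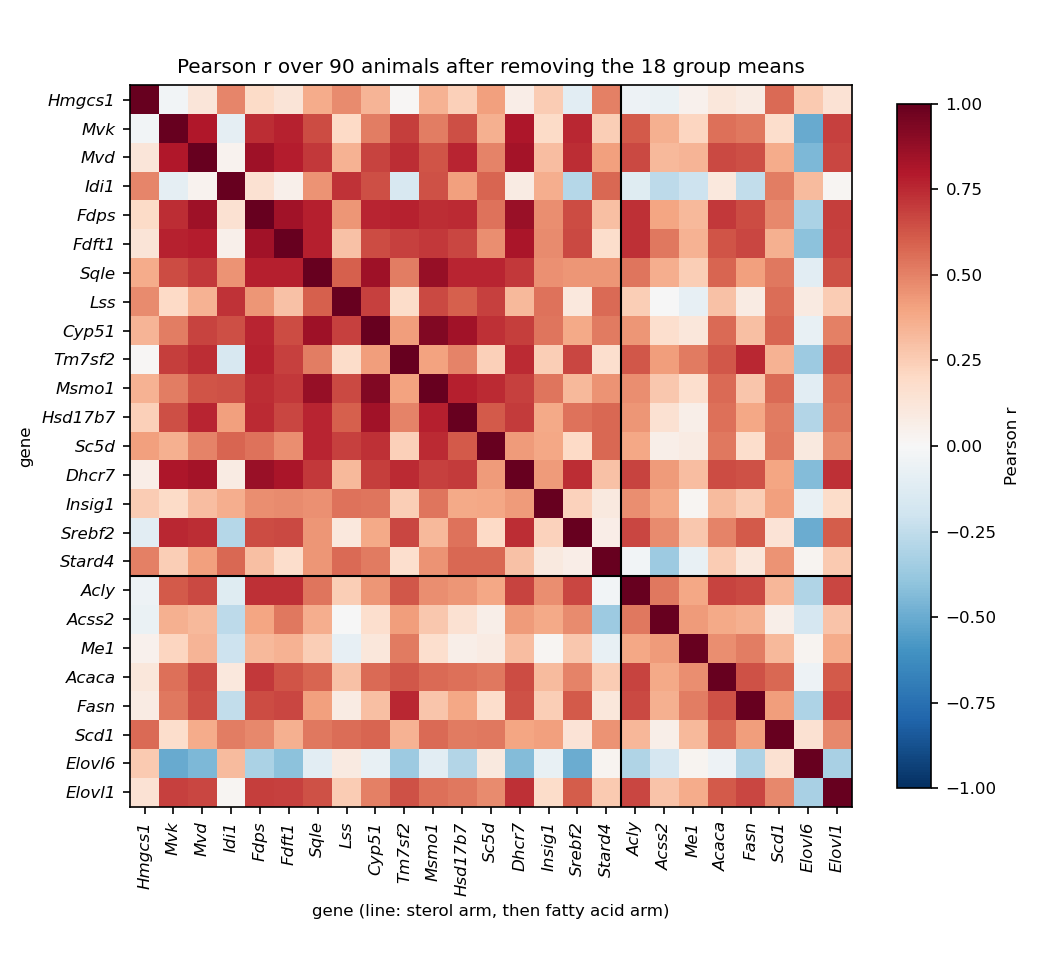
Correlation of each pair of measured members over the 90 arrays after group means were subtracted, with sterol and fatty acid members in separate blocks. The sterol block has a median of 0.51, and Elovl6 has negative values against most members.

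For 8 pairs the same quantity was tested by shuffling animals within their groups, a two-sided permutation test with 100000 resamples. Sqle and Idi1, both of the sterol arm, had r = 0.45 and rho = 0.52 (permutation p = 8.00e-05, adjusted over 8 pairs 0.00064), and r = 0.49 without the 2 arrays farthest out in Idi1. Within single groups r was positive in 15 of 18. Across arms, Fasn and Sqle had r = 0.41 and rho = 0.33 (permutation p = 0.00128, adjusted 0.00512), and 0.34 without the 2 farthest arrays, with r positive in 11 of 18 groups. Scd1 followed the type II gene Sftpc at r = 0.34 and rho = 0.31 (permutation p = 0.00428, adjusted 0.0114), and at 0.23 without the 2 farthest arrays, with r positive in 15 of 18 groups.

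The other 5 pairs did not pass. Fdps and Cdk1, a gene of dividing cells, had r = 0.27 (adjusted permutation p = 0.208), which was 0.14 without the 2 farthest arrays. Against Adipoq, the adipocyte hormone, r was -0.04 for Fasn, -0.07 for Scd1 and 0.07 for Acaca, and Fasn had 0.12 against Sftpc.

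Of the measured members, 16 had further single-symbol probe sets, 21 in all, and these mostly followed the brightest one. Their difference had the same sign for 20 of 21 at 40 ppm for 1 week, 16 of 21 at 120 ppm and 17 of 21 between unexposed weeks. Scd1 differed most in size, since its second probe set gave 1.12 at 40 ppm (adjusted p over all probe sets = 0.00233) where the brightest, near the top of the array's scale, gave 0.32. Between unexposed weeks that second set gave -0.60 (0.00134), where the brightest gave -0.00. The second sets of Mvd (1.01), Elovl1 (0.92) and Me1 (0.44) matched the sign of the brightest at 40 ppm.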

How the data were processed

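Whole-lung RNA of 90 mice was measured, 1 array per animal. The deposited values are on the log2 scale, 1 per probe set, and the submitters' processing notes list RMA and Partek without a version. Of 45141 probe sets, 104 controls were left out and 28898 had a single gene symbol. The brightest probe set over the 90 arrays stood for each of 17097 genes, 7180 of which had several. No array files were used, so the processing before the log2 values was not checked. The labels call the lungs biological replicates. The most alike arrays correlated at 0.997, and all were kept.

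Means of the 18 groups were fitted to all 90 arrays with limma 3.58.1 in R 4.3.3 (72 residual degrees of freedom), and the empirical Bayes test was adjusted by Benjamini-Hochberg over all 17097 genes in each of 28 comparisons. A gene passed at an adjusted p under 0.05. The fit was tested on simulated data. Fold changes are on the log2 scale. The members and lists were chosen with earlier results of these data known, so counts over them are descriptions. Any member could be named, with those that passed given by size and at most 6 in a direction where more did, and genes of the other lists were named by size among those that passed, up to 4 a list. Promoter windows came from RefSeq. Alternatives were array weights, a poly-A covariate, renewed quantile normalisation, a filter on dim genes, the median over probe sets, fits restricted to the arrays compared, an intensity trend, a replicate block, and leaving out arrays. The number of arrays limits the precision.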

Additional observations from a re-analysis of the deposited data

Results flagged for a closer look

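A single animal stood apart from the other 4 of its group by Dixon's gap criterion in 10 of 69 groups of values examined, where chance gives about 5%. The 69 were 36 sets of arm means and 33 sets of single-member values in WT 1-week groups. Not every measured member was examined in each of those groups. The 69 sets share animals and vary together, so the count cannot be weighed against that 5%. Most of the 10 were WT 40 ppm animal 5 at 1 week. Its sterol mean was 0.18, against 0.64 to 0.78 in the other 4, with Mvd at 6.43, Fdps at 9.43, Sqle at 8.77, Cyp51 at 8.17 and Tm7sf2 at 6.54, each below the others. TG 40 ppm animal 5 at 1 week had a sterol mean of -0.10. In the fatty acid mean, TG control animal 3 at 4 weeks stood at 0.23 and WT 120 ppm animal 3 at 4 weeks at 0.0437, both above their groups. That TG control had an adipocyte-marker mean of 1.98, where the other 4 of its group ran from -0.36 to 0.31. The part of adipocytes in its fatty acid mean was not tested. Me1 was low in WT control animal 2 at 1 week, at 8.81.

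Strains differed in the 1-week change, by the limma test of the difference itself, in 25 cases. These are calls over 4 comparisons that share WT lungs, and several genes recur, so they are not 25 genes. Of all genes, 1.05% and 1.76% were lower in KO at 40 and 120 ppm, and 1.39% and 3.42% in TG. No member at 120 ppm passed when only the arrays compared were fitted. For KO against WT at 40 ppm these were Fdps (-1.25), Tm7sf2 (-1.04), Lss (-0.83), Sqle (-0.83), Elovl1 (-0.74), Fasn (-0.72) and Me1 (-0.63), and at 120 ppm Fdps (-0.90), Tm7sf2 (-0.79), Me1 (-0.55), Fasn (-0.54) and Elovl1 (-0.54). For TG against WT at 40 ppm they were Fdps (-0.98), Tm7sf2 (-0.96), Fasn (-0.73), Elovl1 (-0.62) and Me1 (-0.58), and at 120 ppm Mvd (-1.09), Fdps (-0.91), Tm7sf2 (-0.84), Fasn (-0.68), Fdft1 (-0.62), Me1 (-0.58), Elovl1 (-0.51) and Scd1 (-0.47).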

How the results depend on the processing

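No member call in an exposure comparison reversed under the alternatives run, but counts moved. The share of all genes that passed in each refit is not given, here or beside the refit counts above. The 11 that rose in WT at 40 ppm became 20 with array weights and 10 to 14 with each array left out, and 10 of the 11 passed every time, Cyp51 missing once (adjusted p = 0.0598). The 7 at 120 ppm became 11 with array weights, 12 without arrays of weight under 0.25, 0 with only the arrays compared, and 1 to 11 with each array left out. Elovl1 passed in all 10 of these refits.

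The strain differences were 7, 5, 5 and 8 members (KO at 40 and 120 ppm, TG at 40 and 120 ppm). Array weights gave 13, 9, 8 and 4. Without arrays of weight under 0.25, KO gave 11 and 10. With only the arrays compared, both 120 ppm counts were 0. At 40 ppm that fit lost Lss in KO (adjusted p = 0.0861) and Fdps and Elovl1 in TG (0.0511 and 0.0536). With the median over probe sets, Elovl1 at 120 ppm missed in KO (-0.60, adjusted p = 0.0536) and TG (-0.56, 0.0561). Left-out arrays gave 5 to 10, 1 to 9, 3 to 6 and 3 to 11.

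The 11 members that differed between unexposed weeks became 18 with array weights and 6 to 13 with arrays left out. With the median over probe sets, Sc5d reversed to 0.38 (adjusted p = 0.0059). Mvk, Mvd, Acaca and Elovl6 did not pass with that median, and Acly and Scd1 did. The difference between 4 and 1 weeks in the WT change, 0 at both doses, became 7 (40 ppm) and 2 (120 ppm) with array weights, 2 and 3 without arrays of low weight, and 0 to 1 (without WT 40 ppm animal 1 of week 4) and 0 to 2 (without WT 120 ppm animal 3 or 4 of week 1, or animal 5 of week 4) with each array left out. At 120 ppm it was also 1 with the poly-A covariate, renewed quantile normalisation or the median over probe sets. WT at 120 ppm for 4 weeks gave 1 with array weights or only the arrays compared. The r of Fdps with Cdk1 was 0.14 without the 2 farthest arrays and 0.11 without arrays of low weight, and that of Sqle with Idi1 was 0.58 without the latter. The cause of these shifts was not tested.

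With the replicate number as a block, KO at 40 ppm gave 11, TG at 40 ppm 8 and the WT 40 ppm difference between weeks 1. Only 21 of 60 same-numbered pairs correlated above 0.1, and 0 of 12 comparisons had every pair above it, so the numbers were not read as pairing.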
